A study of Mus musculus with 8 samples.

Results

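Mouse genes whose symbol is Zfp followed only by a number were examined on arrays that measure DNA methylation at CpG islands. Zfp stands for zinc finger protein. The members are the 235 such genes named by 1570 of the 88737 probes of the array. Probes whose starts lie up to 500 bp apart were joined into regions, and 243 regions of at least 3 probes, from 191 genes, could be followed among 13183 regions in all.

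Most Zfp proteins bind DNA through a row of Cys2-His2 zinc fingers joined by short conserved linkers, and the whole row is commonly encoded in a long last exon. Many also carry a KRAB domain, which recruits the corepressor Trim28 (KAP1), the histone methyltransferase Setdb1 and HP1 proteins and so silences retroelements and imprinted loci in the early embryo. The family grew by tandem duplication, and its members lie in clusters, many of them on mouse chromosome 7. Paralogs resemble each other in sequence, so a probe may also capture DNA of a relative, which was not tested.

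Methylated DNA was collected by mDIP, in which an antibody against 5-methylcytidine pulls methylated fragments out of sonicated, denatured DNA. The bound DNA (Cy5) and the input DNA (Cy3) of each sample were hybridised together. Each of the 8 samples is a group of its own with 1 array. Embryonic stem (ES) cells were of wild type, aid-/- or mbd4-/- genotype or carried a Gadd45a knockdown. Both organs, liver and spleen, came from C57BL6/J mice of 6 months, of genotype aid-/- or mbd4-/-. Aid deaminates cytidine, Mbd4 is a glycosylase for mismatched thymine with a methyl-CpG binding domain, and Gadd45a responds to DNA damage; all 3 have been studied as parts of DNA demethylation. Wild-type organs were not analysed here, and the aid-/- and the mbd4-/- tissue DNA came from different laboratories. The labels give no strain, line or clone for the ES cells and no knockdown reagent.

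A region's value is the mean over its probes of log2 (bound over input), minus the median of its array. Arrays differed in how far this scale stretched. The plateau of an array, taken as the 98th percentile of its autosomal regions, was 3.35 in wild-type, 4.46 in aid-/-, 4.26 in mbd4-/- and 2.74 in Gadd45a knockdown ES cells. The aid-/- arrays reached 2.25 (liver) and 2.28 (spleen), and the mbd4-/- arrays 3.98 and 3.63. A region was called high on an array when it reached 50% of that plateau. The bound signal was well above background for 74.1% (aid-/- ES cells) to 96.8% (mbd4-/- liver) of the member probes. Of the markers listed for the 3 tissues, 1 of 7 ES genes, 1 of 5 liver genes and 2 of 7 spleen genes had a region, too few to check the labelled tissues, and methylation of an island is not expression.

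Zfp526 is an extreme case of a pattern found in part of the family, and its sequences are printed for that reason. Its start site and the inside of the gene are covered by separate regions 4.61 kb apart on chromosome 7. In wild-type ES cells the inner region exceeded the other by 5.52, the most of the 23 genes compared below. The median was 2.61 over the 14 of those genes whose second region was high in liver and spleen. The first line below is its RefSeq promoter (250 bases before to 50 after the start, GRCm38.p6, plus strand), the second a probe inside that promoter (mm9, chr7:26006217-26006270) and the third a probe inside the gene (mm9, chr7:26010932-26010976), all with CpG dinucleotides in capitals.
Zfp526 promoter: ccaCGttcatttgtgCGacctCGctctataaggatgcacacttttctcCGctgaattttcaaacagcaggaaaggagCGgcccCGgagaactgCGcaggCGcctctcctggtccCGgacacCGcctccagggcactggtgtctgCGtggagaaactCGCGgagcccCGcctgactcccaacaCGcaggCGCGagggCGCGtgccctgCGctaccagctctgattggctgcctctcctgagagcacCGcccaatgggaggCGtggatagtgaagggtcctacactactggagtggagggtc
Zfp526 promoter probe: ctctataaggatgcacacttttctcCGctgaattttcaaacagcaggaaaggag
Zfp526 inner probe: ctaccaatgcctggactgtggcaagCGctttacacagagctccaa
The promoter holds 22 CpG in 300 bases, and each of the probes printed holds 1. The promoter probe measured -2.34 in wild-type ES cells, -0.39 in aid-/- ES cells and between -2.85 and -0.89 in liver and spleen. Its tissue mean of -1.84 was the lowest of its region, where the other probes ran from -1.60 to -0.17. The probe with -0.17 measured 1.22 in aid-/- ES cells. The inner probe measured 4.27 in wild-type ES cells and between 2.05 and 4.38 in liver and spleen. Its tissue mean of 3.24 was the highest of its region, where the other probes ran from 2.82 to 3.17. On these arrays a probe with a single CpG was low at the start site and another was high inside the gene. The bound fragments of 300 to 1000 bp reach beyond the probes, and their CpG content was not compared.

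Most Zfp regions were low everywhere. Of the 243 regions, 193 (79.4%) were high on no array, against 83.7% of all 13183 regions. The median over the members lay between -0.10 (wild-type ES cells) and 0.07 (Gadd45a knockdown), close to the array medians. The high tail was larger than elsewhere on the array: 39 regions (16.05%) of 37 genes were high in every liver and spleen sample, where 7.52% of all regions were. On all 4 ES arrays 15 regions (6.17%) were high, against 3.91% of all regions. Each of these 15 was also high on the 4 tissue arrays. Without the Gadd45a knockdown array the ES count was 26.

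**Figure D1:**
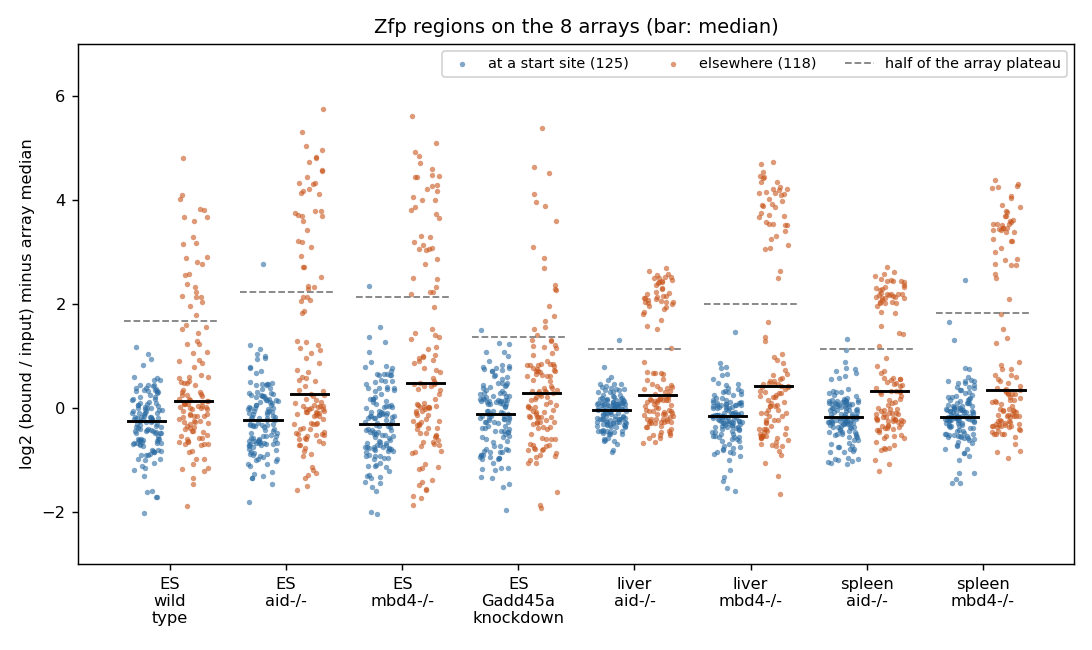
Value of each of the 243 Zfp regions on the 8 arrays, as log2 bound over input minus the array median (vertical axis), for 125 regions that overlap a RefSeq promoter (blue) and 118 that do not (orange). Black bars are medians and dashed lines 50% of the array's plateau; on the liver and spleen arrays the orange points fall into a low and a high group, and at most 1 blue point reaches the dashed line on any array.

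Position relative to the start of a gene separated low from high regions. A region was placed at a start site when at least 1 of its probes shared 25 bases with a RefSeq promoter of any gene (GRCm38.p6, 250 bases before to 50 after the start). None of the 125 Zfp regions at a start site was high on all liver and spleen arrays. Of the 118 other Zfp regions, 39 (33.1%) were. Over the rest of the array 77 of 7051 regions at a start site (1.09%) and 876 of 5889 others (14.9%) were high. The share outside start sites was therefore larger among Zfp regions than among the rest, and related finger families varied, with 6 of 17 such regions high for Zbtb genes, 3 of 6 for Zscan and Zkscan genes and 2 of 12 for Zfp genes with a letter in their symbol. The promoter table is not complete: 32 of the 191 genes had no promoter in it, and for 32 more no probe of the gene matched the promoter.

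CpG content moved with this class. Regions high in liver and spleen had a median of 4.44 CpG per 100 probe bases, the other Zfp regions outside start sites 5.43, and those at start sites 5.56. Outside start sites, 13 of 23 Zfp regions with under 4 CpG per 100 bases were high (56.5%), 18 of 59 with 4 to under 6 (30.5%) and 8 of 36 with 6 or more (22.2%). The same bins of the other regions gave 27.3%, 15.1% and 5.59%. In each bin the Zfp share was the higher of the pair. The GC content differed little, at 56.4% in the high regions and 56.5% at start sites. How far CpG content accounts for the class was not tested.

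For 127 genes a probe fixed the gene's own start site, which gave a distance for 160 regions. The 21 high regions among them all lay after the start, at 1810 to 201772 bp with a median of 11487 bp. Within 500 bp of the start, 0 of 119 regions were high. Over 2000 bp after it, 20 of 33 were (60.6%), with a median of 3.31 in mbd4-/- liver. The 6 regions over 500 bp before the start were not high, and their median in mbd4-/- liver was -0.15.

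**Figure D2:**
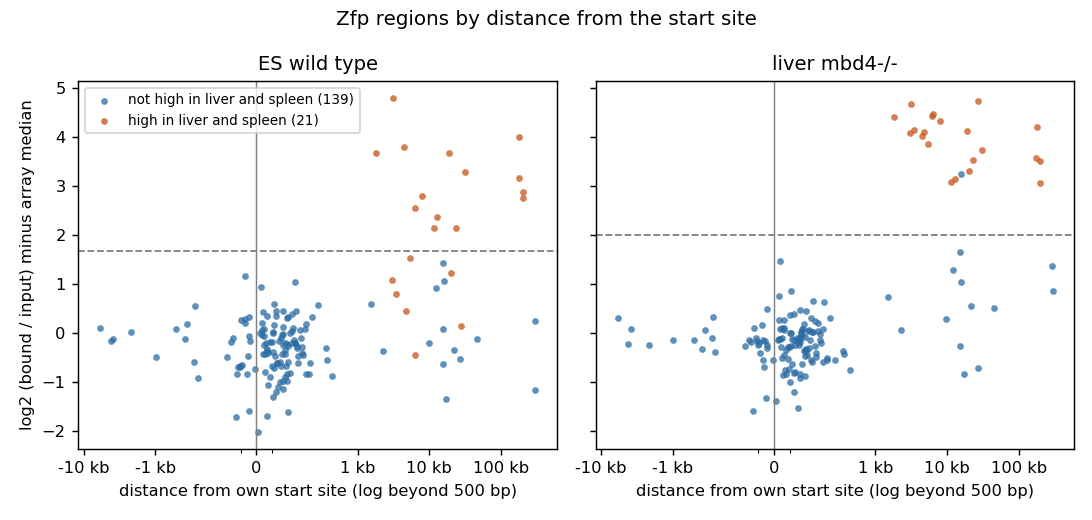
Value of 160 Zfp regions (vertical axis, log2 bound over input minus array median) against the distance of the region's centre from the gene's own start site (horizontal axis, positive after the start, logarithmic beyond 500 bp), in wild-type ES cells and mbd4-/- liver. The 21 regions high in liver and spleen (orange) all lie after the start, at 1810 bp or more.

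In 23 genes a region at the start and a region elsewhere could be set side by side, taking of each kind the region with the highest tissue mean. In 14 of them the second was high in liver and spleen, and in 13 of these 14 it lay above the start-site region on all 8 arrays. The median distance between the pair was 10.4 kb. The exception was Zfp282, which was above on 6 arrays and below it in wild-type (-0.18) and Gadd45a knockdown ES cells (-1.35). The median difference of the 14 pairs ran from 1.55 in Gadd45a knockdown to 4.34 in aid-/- ES cells, and from 2.28 in aid-/- spleen to 4.03 in mbd4-/- liver. The 14 pairs were chosen by their liver and spleen values, so the order and the differences on those arrays were largely set by the choice. The ES arrays took no part in it.

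Among these 14 genes Zfp768 gave the shortest step, 2.19 kb. Its region at the start (8 probes, chr7:134488622-134489803) measured from -0.01 to 0.44 in liver and spleen, and its region after the start (3 probes, chr7:134486849-134487188) from 2.29 to 4.42. Zfp423, a partner of Ebf transcription factors in cerebellar and fat cell development, gave one of the longest. Its start-site region of 26 probes stayed between -0.60 and 0.12 on all arrays. A region of 5 probes 180 kb away measured 4.01 in wild-type ES cells, 5.32 in aid-/-, 4.85 in mbd4-/- and 2.88 in the Gadd45a knockdown. In the organs it measured 2.37 and 2.45 (aid-/- liver and spleen) and 4.22 and 3.59 (mbd4-/- liver and spleen). The start-site region lay below this one on every array.

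The linkers between fingers leave a recognisable word in the DNA, and the probes that carry it are shown for that reason. The conserved linker between fingers is encoded by DNA that fits ACNGGNGANAANCC, which was searched on both strands of every probe. It occurred in 11 of the 77258 probes in regions of the array (0.0142%), and 4 of these belong to Zfp regions (0.301% of 1330 probes). Of these 4, 3 lay in regions high in liver and spleen, and the other one, in Zfp335, at a start site. Over the whole array 3 of 4690 probes in tissue-high regions matched. The first 3 follow with the match in capitals (mm9).
Zfp334 chr2:165205630-165205683: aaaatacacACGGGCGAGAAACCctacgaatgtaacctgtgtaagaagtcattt
Zfp324 chr7:13556484-13556528: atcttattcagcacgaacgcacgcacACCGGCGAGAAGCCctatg
Zfp30 chr7:30578132-30578176: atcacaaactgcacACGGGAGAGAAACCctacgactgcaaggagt
The first is written as the complement of the array's strand. In mbd4-/- liver these probes measured 4.87, 2.85 and 3.69, and in wild-type ES cells 3.38, 1.54 and 2.17. A match is a description of these letters and does not place a probe in a finger-coding exon, since exons could not be assigned. The short probes leave most of each gene unread.

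The highest Zfp region over the 8 arrays was in Zfp629 on chromosome 7 (chr7:134754584-134755069, 5 probes, 3121 bp after the start), with a mean of 4.43. It measured 4.81 in wild-type, 5.75 in aid-/-, 5.62 in mbd4-/- and 5.38 in Gadd45a knockdown ES cells. In liver it measured 2.43 (aid-/-) and 4.69 (mbd4-/-), and in spleen 2.49 and 4.24. This probe of the region held the most bound DNA in the tissues (chr7:134754884-134754929, CpG in capitals).
Zfp629 inner probe: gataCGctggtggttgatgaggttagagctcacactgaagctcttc
Next came Zfp13 (mean 4.01), Zfp827 (3.75), Zfp821 (3.74) and the Zfp423 region above (3.71). All 5 were high on every array. In the Gadd45a knockdown they lay between 2.88 and 5.38, above that array's plateau of 2.74.

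The lowest 5 were Zfp266 (mean -1.37), Zfp472 (-1.33), the start-site region of Zfp526 (-1.27), Zfp658 (-1.25) and Zfp386 (-1.16). Zfp266 measured between -2.01 and -1.59 on the ES arrays and between -1.33 and -0.47 in liver and spleen. All of them but Zfp472 overlapped a promoter. The member just inside the cut in all tissues was Zfp707 (1.57, 2.49, 2.02 and 3.07 in liver, aid-/- then mbd4-/-, and in spleen in that order). Zfp316 lay just outside, at 2.12, 3.25, 1.41 and 1.35, and missed the cut of 1.82 in mbd4-/- spleen. Zfp653 also lay outside, at 1.16, 1.65, 1.45 and 2.10, and missed the cut of 1.99 in mbd4-/- liver.

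**Figure D3:**
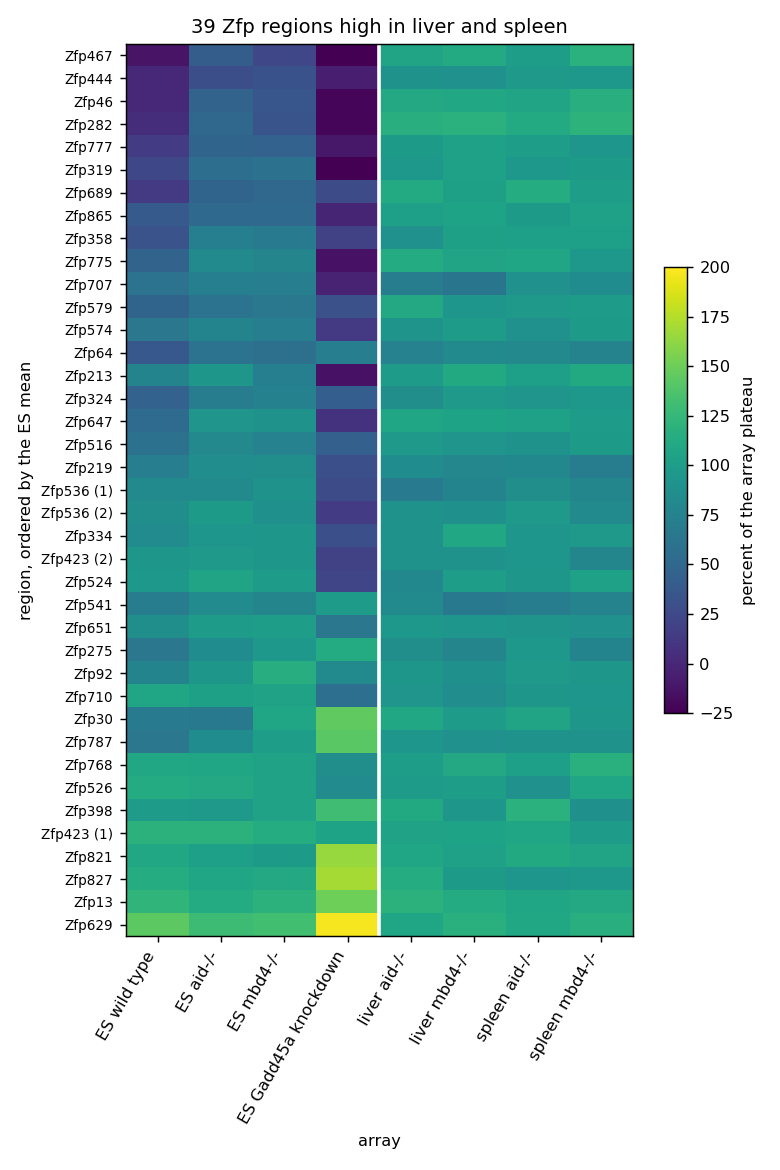
Percent of the array's plateau reached by the 39 Zfp regions that were high on all 4 liver and spleen arrays (rows, ordered by their mean over the ES arrays) on the 8 arrays (columns). The tissue columns are even, while in the ES columns 4 regions (Zfp467, Zfp444, Zfp46 and Zfp777) were high on no array and 15 on all 4; the Gadd45a knockdown column holds both the lowest and the highest values.

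The ES arrays split the 39 tissue-high regions into steps. Of the 39, wild-type ES cells had 26 high, aid-/- and mbd4-/- ES cells 34 each, and the Gadd45a knockdown 16. The 15 high on all ES arrays were in Zfp13, Zfp398, Zfp787, Zfp541, Zfp526, Zfp30, Zfp710, Zfp768, Zfp629, Zfp827, Zfp423, Zfp821, Zfp651, Zfp275 and Zfp92. Zfp541, a meiotic regulator, was the least enriched of these in mbd4-/- liver, at 2.64. A further 11 were high on the ES arrays other than the Gadd45a knockdown, among them both Zfp536 regions (a neuronal repressor), Zfp213 and Zfp524. The rest were below the cut in wild-type ES cells.

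Liver and spleen were next set against ES cells, with arrays that differ in genotype serving as the replicates, so that p-values measure the spread between such arrays. The ES side alone held wild type and the Gadd45a knockdown, so tissue and genotype cannot be fully told apart. Both arrays read with Feature Extraction 10.7.3.1 were also ES arrays. In the limma fit over all 13183 regions, 0 Zfp regions passed an adjusted p of 0.05, and 32 regions of the whole array did (0.243%). At an unadjusted p under 0.05 there were 37 Zfp regions (15.2%), close to the 15.9% of all regions. The smallest adjusted p among the members was 0.0866, for Zfp703. The test of the log2 values therefore gave no Zfp call.

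The stretch of the scale bears on this result, since the same tissue reached 2.25 on one array and 3.98 on another. When every array was rescaled to 1 common plateau of 3.37, which was among the alternatives listed for this comparison, 11 Zfp regions were lower in ES cells and 2 higher by limma (adjusted p under 0.05), against 3.04% of all regions in either direction. In the authors' deposited value table, the counts were again 11 and 2 of 172 Zfp regions, against 3.89% of all regions, and 11 regions were called under both. Scan day was added to the common-plateau fit after the data were seen, since wild-type and aid-/- ES cells shared a day with aid-/- liver and spleen. With day as a block 12 Zfp regions were lower and 3 higher by limma (3.52% of all regions in either direction), and within that day alone 10 and 2 (2.21%). On the log2 scale both of these fits called 0 regions. Both rest on the same difference, of wild-type and aid-/- ES cells against aid-/- liver and spleen. The other days held only ES cells or only tissue, so their arrays did not add to that difference. On the common plateau all 4 ES values lay below all 4 tissue values in 29 Zfp regions (7.93% of all regions did so) and above them in 9 (4.07%). On the log2 scale those counts were 22 and 10, against 7.77% and 4.01%. Among tissue-high regions alone, 43.6% of the Zfp ones and 33.2% of all had every ES value below on the common plateau. On the log2 scale these shares were 15.4% and 6.15%. Of the 11 Zfp regions called lower on the common plateau, 9 were tissue-high. The regions called there are described below by their limma result on the common plateau, and values of single arrays are on the log2 scale.

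Zfp467 had the largest difference. It was low in wild-type (-0.45) and Gadd45a knockdown ES cells (-0.70), higher in mbd4-/- (0.96) and aid-/- (1.86), and high in liver (2.39 for aid-/-, 4.47 for mbd4-/-) and spleen (2.29 and 4.31). All tissue values lay above all ES values. The difference, ES minus tissue, was -2.95 ± 0.73 (SE) on the log2 scale with an adjusted p of 0.130 by limma, and -3.47 ± 0.46 on the common plateau with an adjusted p of 0.00331. With scan day as a block it was -1.64 on the log2 scale (adjusted p = 0.359 by limma) and -3.01 on the common plateau (0.0196).

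Zfp282 and Zfp46 followed the same order. Zfp282 measured 0.14, 2.29, 1.41 and -0.57 in wild-type, aid-/-, mbd4-/- and Gadd45a knockdown ES cells, and 2.64 and 4.73 in liver and 2.57 and 4.39 in spleen (aid-/- first). Zfp46 measured 0.04, 2.06, 1.51 and -0.61 on the ES arrays and 2.49, 4.34, 2.43 and 4.22 on the tissue arrays. In both genes wild-type and knockdown ES cells were near or below the array median, and no ES value reached the lowest tissue value. On the common plateau the limma differences were -3.39 (adjusted p = 0.00383) and -3.21 (0.00477). With scan day as a block they were -2.94 (0.0142) and -2.86 (0.0142) there, and -1.39 (0.401) and -1.41 (0.371) on the log2 scale. The most enriched tissue probe of each of these genes is printed to show how many CpG it carries (mm9, CpG in capitals).
Zfp467 chr6:48388853-48388897: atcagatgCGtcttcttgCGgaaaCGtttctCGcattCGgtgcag
Zfp282 chr6:47855192-47855236: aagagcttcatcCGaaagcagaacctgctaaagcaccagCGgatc
Zfp46 chr4:135846884-135846928: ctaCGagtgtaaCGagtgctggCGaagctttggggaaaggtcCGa
The probes hold 5, 2 and 4 CpG. In wild-type ES cells they measured -2.59, -0.07 and -0.51, and in mbd4-/- liver 4.89, 5.00 and 4.94.

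The other regions lower in ES cells on the common plateau were in Zfp444 (-2.67, adjusted p = 0.00226 by limma), Zfp777 (-2.50), Zfp689 (-2.47), Zfp865 (-2.25), Zfp358 (-1.72), Zfp579 (-1.64), Zfp316 (-1.53) and Zfp703 (-1.06). They were named because that alternative called them. On the log2 scale the ES and tissue values of Zfp865, Zfp358 and Zfp579 overlapped. Zfp358 measured 3.20 in aid-/- ES cells against 2.00 and 2.32 in aid-/- liver and spleen. In mbd4-/- it measured 2.87 in ES cells against 4.09 and 3.69. With scan day as a block in limma Zfp358 (-1.45, adjusted p = 0.118) and Zfp703 (-1.03, 0.0675) no longer passed, and within the shared day Zfp316 (-1.67, 0.0511) did not either. In the first 6 of these the aid-/- and mbd4-/- ES values stood above both the wild-type and the knockdown value. Zfp579, for example, measured 1.59 in wild-type and 0.85 in knockdown ES cells against 2.72 in aid-/- and 2.76 in mbd4-/-. In liver and spleen it measured 2.50 and 2.19 (aid-/-) and 3.70 and 3.62 (mbd4-/-). Zfp703, a transcriptional repressor, differed in kind. Its region of 23 probes was low on every array, at -0.68 to -0.17 in ES cells and 0.32 to 0.97 in liver and spleen.

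**Figure D4:**
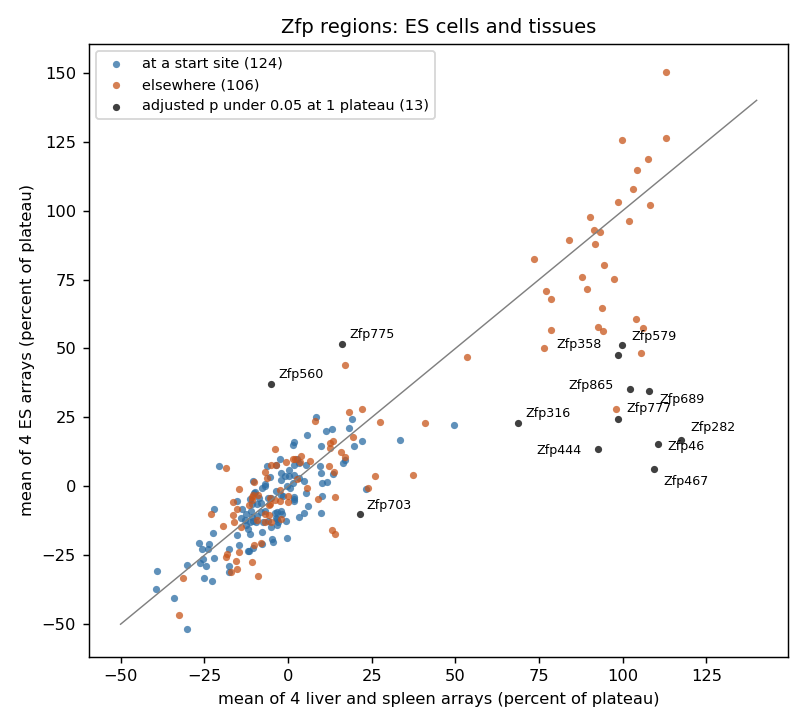
Mean over the 4 ES arrays (vertical axis) against the mean over the 4 liver and spleen arrays (horizontal axis) of each Zfp region, in percent of each array's plateau; the grey line marks equal values. Black points are the 13 regions past an adjusted p of 0.05 by limma on the common plateau, 11 below the line and 2 above; on the log2 scale 0 regions pass.

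The regions higher in ES cells were in Zfp560 and Zfp775. Zfp560 overlaps a promoter and measured 1.17, 2.77, 0.79 and 0.90 on the ES arrays (in the order wild type, aid-/-, mbd4-/-, knockdown) against -0.55 to 0.08 in tissues. The Zfp775 region at chr6:48579218-48579836 measured 1.23, 2.08, 3.08 and 1.41 against 0.32 to 0.63. Another region of Zfp775 (chr6:48569573-48570386) was high in all tissues, at 2.45 to 4.25. On the common plateau the limma differences were 1.42 (adjusted p = 0.0406) and 1.20 (0.0408). With scan day as a block Zfp560 passed (1.58, adjusted p = 0.0364 by limma) and Zfp775 did not (0.88, 0.117). Zfp36, which encodes tristetraprolin, a factor of mRNA decay, was called higher in ES cells in the authors' deposited table (1.03, adjusted p = 0.0461 by limma) and on the common plateau with scan day as a block (1.46, 0.0178), but not on the common plateau without it, with 0.57, 0.79, 0.08 and -0.19 on the ES arrays and -0.75 to -0.43 in tissues on the log2 scale.

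Liver was also set against spleen. The limma fit of liver against spleen called 0 regions of the array (0%), and 204 regions had an unadjusted p under 0.05 (1.55%). Among the Zfp regions 1 had, Zfp316, which measured 2.12 and 3.25 in liver and 1.41 and 1.35 in spleen. A p above the threshold with 2 arrays a side does not show that the tissues are equal.

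The next question was whether loss of Aid or Mbd4, or less Gadd45a, went with more methylation in ES cells. Each comparison is of 1 array with 1 array and has no test: a region was listed when its log2 difference reached 1 or more and 75% or more of its probes went the same way. All 3 comparisons share the wild-type array, and probes of 1 region share sonicated fragments of 300 to 1000 bp. Wild-type and aid-/- ES cells were scanned on 1 day with Feature Extraction 10.9.1.1, while mbd4-/- and the knockdown were scanned on 2 other days with 10.7.3.1. Scan day and software version thus cannot be told apart from those 2 conditions. No 2 ES arrays shared a slide, so slide cannot be told apart from condition in any of the 3 comparisons. Against wild type, 42 Zfp regions were listed as higher in aid-/- ES cells and 3 as lower (all regions 8.7% and 2.21%). For mbd4-/- 35 were higher and 5 lower (7.64% and 2.59%). Of those listed as higher, 32 and 25 belonged to the 39 tissue-high regions. The plateau was also higher on these arrays, 4.46 and 4.26 against 3.35, and on the common plateau 20 and 24 Zfp regions were listed in either direction (4.43% and 4.07% of all regions). Over all 992 tissue-high regions of the array, 66.6% and 51.9% were listed, against 82.1% and 64.1% of the Zfp ones.

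The 5 largest gains in aid-/- ES cells were all in tissue-high regions. Zfp647 measured 4.11 ± 0.24 (SD over 8 probes) against 1.78 ± 0.46 in wild type, Zfp467 1.86 against -0.45 and Zfp282 2.29 against 0.14. The last 2 are those with the largest ES deficit above. Zfp775 (3.70 against 1.56) and Zfp358 (3.20 against 1.08) completed them. The 3 listed as lower were Zfp263 (-0.65 against 1.05), Zfp740 (-1.35 against 0.02) and Zfp523 (-1.12 against -0.0015), each with a probe SD of 0.94 or more on the aid-/- array. Their bound signal there was in part dim, with 4 of 7, 3 of 4 and 2 of 5 probes well above background.

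In mbd4-/- ES cells the largest gains were in Zfp30 (4.60 against 2.23), X-linked Zfp92 (4.92 against 2.57), Zfp783 (2.34 against 0.06), Zfp787 (4.28 against 2.14) and Zfp869 (1.07 against -0.98). Zfp783 and Zfp869 overlap promoters, which few of the regions listed as higher did (4 of 35, and 7 of 42 in aid-/-). The lowest were Zfp263 (-0.71 against 1.05), a second Zfp710 region (-1.73 against -0.28), Zfp397 (-1.87 against -0.59), Zfp523 and Zfp446. Their bound signal was in part dim. Well above background in mbd4-/- were 6 of 7, 2 of 3, 3 of 6, 4 of 5 and 2 of 5 of their probes. Zfp263 was thus listed as lower in both mutants. Its wild-type value of 1.05 stood apart from the other ES arrays (-0.91 to -0.65), so that both differences rest on the wild-type array.

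The Gadd45a knockdown gave 11 Zfp regions listed as higher and 23 as lower (6.46% of all regions each way). Of the 23, 18 were tissue-high. Of all tissue-high regions of the array 42.7% were listed in either direction, against 51.3% of the Zfp ones, and the median difference was -0.75 in both. The largest loss was in Zfp213, at -0.37 ± 0.94 (SD over 6 probes) against 2.55 ± 0.36. Then came a second Zfp423 region (chr8:90306921-90307263, 0.53 against 3.16), Zfp524 (0.61 against 3.17), a Zfp536 region (0.42 against 2.88) and Zfp707 (-0.09 against 2.04). The losses did not take all high regions: Zfp787 (3.89 against 2.14) and Zfp30 (3.97 against 2.23) were listed as higher.

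Zfp53 had the largest gain in the knockdown. Its region measured 1.05 ± 2.08 (SD over 3 probes) against -1.47 ± 1.99, so its probes spread as widely as the difference. The probe that differed most (mm9, CpG in capitals) measured 3.09 in the knockdown, -1.86 in wild type and between -1.22 and -0.34 in tissues.
Zfp53 chr17:21626256-21626300: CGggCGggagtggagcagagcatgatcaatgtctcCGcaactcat
Zfp672 (0.76 against -0.70) and Zfp329 (0.64 against -0.81) completed the list. The knockdown array has the lowest ES plateau, and on the common plateau 41 Zfp regions were listed in either direction (16.9% of all regions, the same share as the members' 16.9%). When the low mode of the array replaced its median as the centre, 53 Zfp regions were higher (28.4% of members listed in either direction, 23.7% of all regions), and the median of all regions moved from 0.12 to 0.54 in this comparison, so its count of gains follows the centring.

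In tissues only aid-/- and mbd4-/- arrays could be compared. In liver 3 Zfp regions were listed as higher in aid-/- and 38 as lower (1.34% and 7.65% of all regions). In spleen 0 were higher and 34 lower (0.281% and 7.59%). Tissue-high regions made up 37 of the 38 and 32 of the 34. Over all 992 tissue-high regions 87.5% (liver) and 63.8% (spleen) were listed, against 94.9% and 82.1% of the Zfp ones, with median differences of -1.54 and -1.15 against -1.69 and -1.25. The aid-/- arrays had the lower plateaus (2.25 against 3.98, and 2.28 against 3.63). On the common plateau 5 Zfp regions were listed in either direction in liver and 5 in spleen (1.9% and 4.3% of all regions). The aid-/- and mbd4-/- tissue arrays were also scanned on different days, and genotype, DNA source and scan day cannot be told apart.

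The largest differences in liver were in Zfp334 (2.05 in aid-/- against 4.34 in mbd4-/-), Zfp629 (2.43 against 4.69), Zfp213 (2.23 against 4.44), Zfp524 (1.81 against 3.98) and Zfp768 (2.29 against 4.42). The 3 higher in aid-/- were low on both arrays: Zfp472 (-0.20 against -1.65), Zfp658 (-0.34 against -1.40) and Zfp259 (-0.26 against -1.30). The first 5 are all tissue-high regions. In spleen Zfp467 (2.29 against 4.31), Zfp768 (2.33 against 4.28) and Zfp526 (2.02 against 3.91) were among the 5 largest.

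The other large spleen differences were X-linked. Zfp185 measured 0.32 in aid-/- spleen and 2.46 in mbd4-/- spleen, and Zfp711 measured 0.57 and 2.49. On the remaining 6 arrays Zfp185 lay between -0.73 and 0.71 and Zfp711 between 0.12 and 1.20. The median of all 352 X regions was 2.26 in mbd4-/- spleen and 0.16 to 0.74 on the other arrays. These genes thus followed the whole chromosome on that array, and the 2 further X-linked members, Zfp275 and Zfp92, were high on all 8 arrays.

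Over ES cells, liver and spleen together, limma with tissue as a block called 0 regions of the array for aid-/- against mbd4-/- (0%). At an unadjusted p under 0.05 there were 1415 regions (10.7%), 35 of them Zfp (14.4%). The smallest adjusted p of a member was 0.464. Leaving out either ES array, which leaves the liver and spleen pairs alone to carry the comparison, gave 38 Zfp regions lower in aid-/- (8.13% of all regions were called in either direction). On the log2 scale the ES pair and the tissue pairs thus did not move together. The plateaus differed likewise, with aid-/- below mbd4-/- in liver (2.25 against 3.98) and spleen (2.28 against 3.63) but not in ES cells (4.46 against 4.26). Leaving out arrays was not repeated on the common plateau. In the tissue pairs genotype, DNA source and scan day cannot be told apart.

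Along the chromosomes, 98 of the 243 regions, of 77 genes, lay in 17 clusters, defined as runs of at least 3 Zfp genes with gaps of up to 500 kb. Chromosome 7 alone held 68 regions of 48 genes. In clusters 18 regions were high in liver and spleen (18.4%), and outside them 21 of 145 (14.5%). Counting only regions away from start sites, the shares were 38.3% and 29.6%. With gaps of up to 1000 kb they were 19.3% and 13.4%, and 40.4% and 27.3% away from start sites. These differences were not tested. Of the 17 clusters 9 had no region high in all tissues.

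The cluster with most genes spans chr6:47780255-48579836 (mm9) with 15 regions of 9 genes, of which 5 were high in tissues and 1, in Zfp398, also on all ES arrays. Low and high regions lay interspersed along it. The regions at starts, of Zfp786, Zfp398, Zfp282, Zfp212, Zfp783 and Zfp956, were not high on all 4 tissue arrays, while inner regions of Zfp398, Zfp282, Zfp777, Zfp467 and Zfp775 were. Zfp398 measured 3.30 in wild-type ES cells and 2.51 to 3.75 in tissues. Its neighbour, the inner region of Zfp282, measured 0.14 and 2.57 to 4.73. Zfp282, Zfp777 and Zfp467, called lower in ES cells by limma on the common plateau, lie within this cluster, and so does the Zfp775 region called higher. Zfp783 was the most enriched of the start-site regions, at 1.31 to 1.65 in tissues, 2.34 in mbd4-/- and 0.06 in wild-type ES cells.

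The second cluster spans chr7:134376542-135020783 with 11 regions of 8 genes. Inner regions of Zfp768, Zfp689 and Zfp629 were high in all tissues and the other 8 regions were not. Zfp768 and Zfp629 were high on all ES arrays too, at 2.36 to 4.80 and 4.81 to 5.75. Between them Zfp689 measured 0.44 in wild-type, 2.13 in aid-/-, 2.19 in mbd4-/- and 0.71 in knockdown ES cells and 2.53 to 4.12 in tissues. Zfp553, Zfp771, Zfp688 and Zfp668 were low on every array, from -1.14 to 0.28, and Zfp747 intermediate, at 0.30 to 1.81.

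Another cluster, at chr7:4866564-5005016, packs 9 regions of 6 genes into 138 kb. Zfp579, Zfp524 and Zfp865 were high in all tissues. In wild-type ES cells Zfp524 measured 3.17 and its neighbours Zfp579 and Zfp865 1.59 and 1.29. In the knockdown all 3 were below the cut, at 0.61, 0.85 and -0.05. The start-site regions of Zfp628, Zfp784 and Zfp580 lay between -1.29 and 0.54 on every array.

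**Figure D5:**
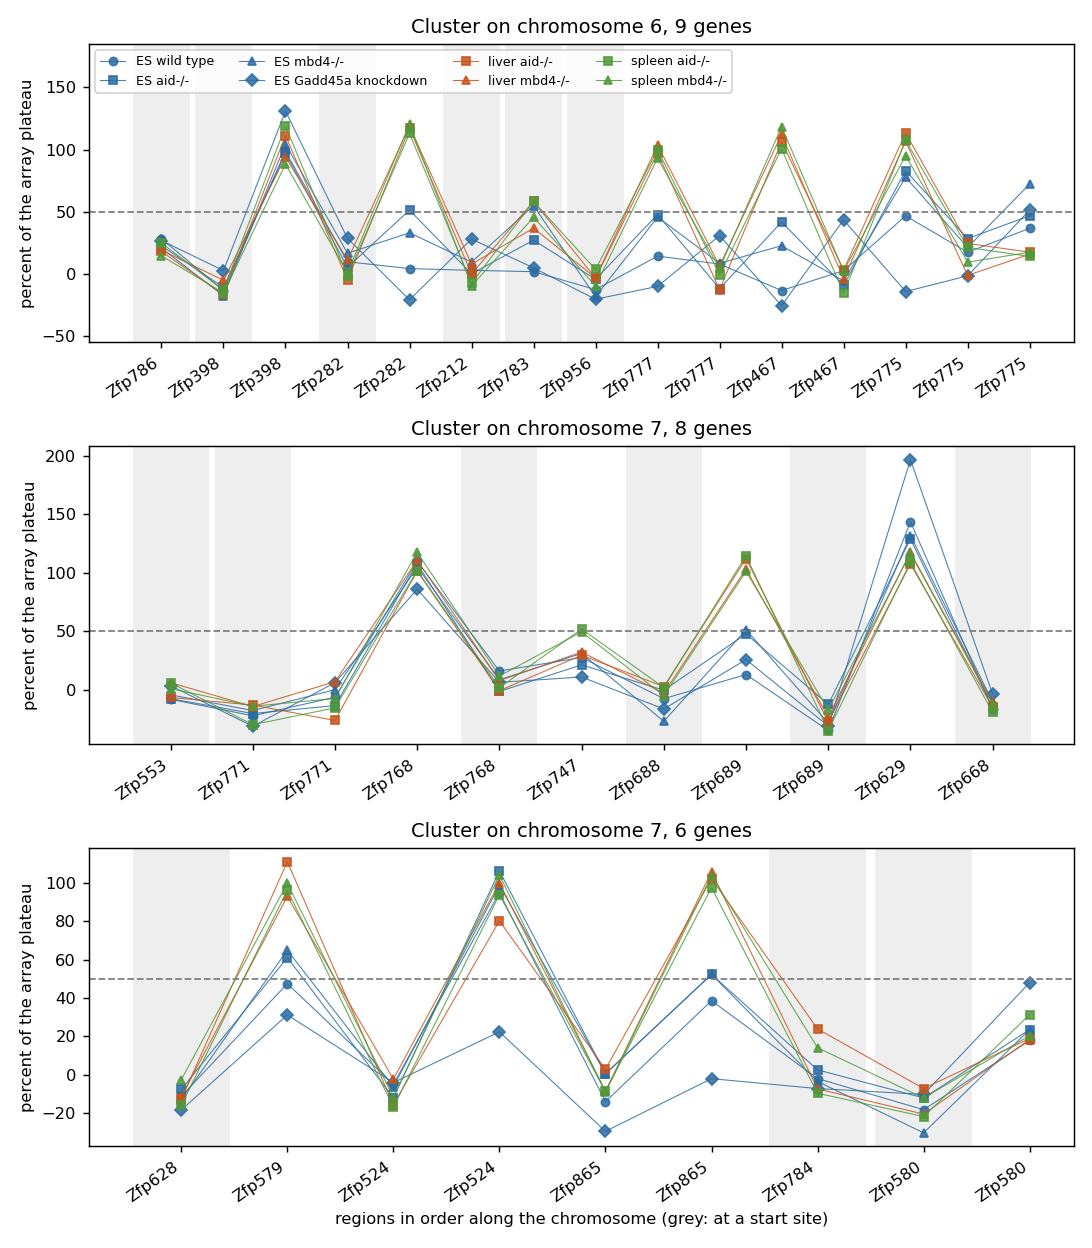
Percent of the array's plateau (vertical axis) for each region of 3 Zfp clusters, in order along the chromosome (horizontal axis, not to scale), with 1 line for each of the 8 arrays and grey columns for regions that overlap a promoter. The dashed line is 50%; no grey column has all 4 tissue arrays above it, and the ES lines (blue) part from the tissue lines at Zfp282, Zfp777, Zfp467, Zfp689 and Zfp865.

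A cluster of equal gene number, at chr7:30569179-30928863 with 8 regions of 6 genes, held 1 high region, in Zfp30 (2.23 to 4.60 in ES cells and 2.42 to 3.91 in tissues). Zfp568, which silences a placental Igf2 transcript, lies there and measured 0.18 to 0.95. Some clusters were low throughout. On chromosome 8 (chr8:72149082-72298863) the 5 regions of Zfp868, Zfp964, Zfp869, Zfp963 and Zfp866, all at start sites, ranged from -1.53 to 1.07. On chromosome 9 (chr9:20189388-20326285) Zfp26, Zfp426 and Zfp266 ranged from -2.01 to 0.32 while Zfp560 was high in aid-/- ES cells alone.

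Members with known roles were mostly low. So were regions in general, with 83.7% of all regions and 79.4% of Zfp regions high on no array. Of 10 genes listed for imprint and retroelement silencing, 5 had a region and 1 was high. Zfp57, which keeps methylation at imprinted regions after fertilisation, measured -0.37 to 0.07 in ES cells and 0.21 to 0.50 in tissues. Zfp445, which shares that task, lay between -0.27 and 0.65, and Zfp809, which silences retroviruses in ES cells, between -0.19 and 0.11. Zfp92 was the high one, at 2.26 to 4.92 in ES cells and 2.12 to 3.52 in tissues.

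The lists for other roles gave like pictures. Of 9 regions of genes that bind RNA or act in the cytoplasm, 7 of them at start sites, 8 were high on no array (83.7% of all regions). They include Zfp598, a ubiquitin ligase that acts on collided ribosomes (-0.67 to -0.15), and Zfp346, which binds double-stranded RNA (-1.52 to -0.26). The one high in tissues, Zfp385a, has a letter in its name and is no member. Of 8 regions of stem cell and early embryo genes, 7 were high nowhere, among them those of Zfp281, which acts with the pluripotency network (0.06 to 0.48), and Zfp143, a factor bound at many promoters (-0.44 to 0.29). The high one was Zfp319, at 2.15 to 4.14 in tissues, 2.50 and 2.51 in mbd4-/- and aid-/- ES cells, 0.79 in wild type and -0.72 in the knockdown.

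Of 22 regions of neural and mesoderm genes, 6 of them at start sites, 5 were high in tissues: 2 each of Zfp423 and Zfp536 and 1 of Zfp516, a factor of brown fat. In the knockdown 4 of these 5 were listed as lower than wild type, and Zfp516 measured 1.21 against 1.97. Of all tissue-high regions of the array 42.7% were listed there in either direction. The knockdown plateau was also the lower, at 2.74 against 3.35. In percent of the plateau the Zfp423 region of 5 probes went from 120 to 105. The other Zfp423 region and both Zfp536 regions fell to between 15.3 and 27.1. Over the array 7.52% of regions, and 16.05% of Zfp regions, were high in tissues. The long start-site regions of Zfp503, a factor of striatal development (34 probes, -0.67 to 0.49), and of Zfp423 (26 probes) were low. Zfp521, a relative of Zfp423, measured -0.22 to 0.78.

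The partners through which KRAB zinc fingers silence were examined as well. Of 26 listed genes 19 had a region, and 20 of their 22 regions were high on no array, where 83.7% of all regions were. Of the 22, 14 overlapped a promoter. The scaffold Trim28 measured -0.68 to 0.23, the methyltransferase Setdb1 -0.39 to 0.52 and the maintenance methyltransferase Dnmt1 -0.44 to 0.27. Atf7ip, which stabilises Setdb1, was the exception in the direction opposite to the Zfp regions above. It measured 2.96 in wild-type, 3.13 in aid-/-, 4.08 in mbd4-/- and 3.49 in knockdown ES cells and -0.08 to 0.04 in all tissues, so the groups did not overlap. The limma difference was 3.42 with an adjusted p of 0.00834, and this was the one region of the list called. A region of Chd3, a NuRD remodeller, was high in tissues (1.82 to 3.20).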

How the data were processed

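DNA of 8 samples was measured on 8 arrays of 94687 spots (5950 controls), with coordinates in mm9. The deposited scanner files hold processed signal intensities, background-subtracted and dye-normalised by Feature Extraction 10.7.3.1 (2 arrays) or 10.9.1.1 (6 arrays), and a log10 ratio of Cy5 over Cy3, per the file headers. The authors' deposited value table holds a score per probe whose scale and centring are not stated; its medians ran from -0.209 to -0.0293, its correlation with the scanner ratios from 0.901 to 0.974, and it was an alternative only. The input is Cy3 and the bound DNA Cy5 on every array, with no dye swap, per the labels.

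From these, log2 of the processed ratio minus the array median was averaged over regions. Left out were 326 probes without a position, 132 outliers and 7174 with dim input. Probes of 45 to 60 bases leave the fragment, not the probe, as the unit of resolution. Member names come from the array designs of 2009 and 2011 (191 genes followed: 175 current symbols, 16 older ones), and sequences from the files and from RefSeq (GRCm38.p6). The 44 genes without a region kept 1 to 4 usable probes.

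Comparisons of tissues or genotypes used limma 3.58.1 in R 4.3.3 over all 13183 regions with Benjamini-Hochberg adjustment at 0.05; comparisons of 1 array with 1 array have no test. Both were run on simulated data with shifts of known size. For the rule of 1 array against 1 array the simulated probes were independent, while real probes of a region share fragments. The simulation therefore does not show how often real regions are listed wrongly. Alternatives were normexp (offset 50, on spot medians, since spot means are in 2 files only), centring on the low mode, 1 common plateau, a probe GC correction, the deposited values, no input filter, slide and scan-day blocks and leaving out each array. Named regions were the 10 largest differences each way past the threshold between ES cells and tissues (none passed), the 5 largest listed differences each way between 2 arrays, the 5 highest and 5 lowest means, the regions of the 3 clusters with most genes and the members of the role lists. Regions nearest the cut, those called only under an alternative and other single examples were named after their values were seen. The members and lists were chosen with earlier results of these data known. The number of arrays limits the precision.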

Additional observations from a re-analysis of the deposited data

Results flagged for a closer look

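Each of 52 described Zfp regions was screened for 1 array that stood apart within the 4 ES arrays and within the 4 liver and spleen arrays, by the critical value of Dixon's ratio. Of 104 such groups 4 were marked, where chance marks about 1 in 20, so the number marked was not above chance. Some of the screened regions had been named for large differences between these same arrays.

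Zfp263 measured 1.05 in wild-type ES cells and -0.91 to -0.65 on the other ES arrays. Zfp316 measured 0.33 in the Gadd45a knockdown and 1.01 to 1.11 on the other ES arrays. Zfp53 measured -0.059 in aid-/- liver and -0.99 to -0.84 on the other tissue arrays. Zfp185, on the X chromosome, measured 2.46 in mbd4-/- spleen and 0.06 to 0.37 on the other tissue arrays, where the median of all 352 X regions was 2.26 on that spleen array and 0.16 to 0.74 on the others.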

How the results depend on the processing

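The count of regions high in all tissues was 39 under each of the 6 alternatives that rescored the arrays; on the common plateau it is equal by construction. Of 188 summary values under alternatives 37 moved further, none in direction for a named region. Many of the other 151 were counts of 0 that stayed 0, so this share does not measure how stable the other counts are. Under normexp the Zfp regions higher and lower than wild type numbered 13 and 0 (aid-/-) and 11 and 0 (mbd4-/-); 0 were higher in the Gadd45a knockdown and 0 in aid-/- liver. Listed in either direction under normexp were 5.35% of members and 2.03% of all regions (aid-/- ES), 4.53% and 1.32% (mbd4-/- ES), 6.996% and 6.21% (knockdown), 15.2% and 6.65% (liver) and 14.8% and 8.58% (spleen). On the common plateau 17 and 22 were higher in aid-/- and mbd4-/- ES cells, 2 lower in mbd4-/-, 19 higher in the knockdown, 2 lower in aid-/- liver, and 2 higher and 3 lower in aid-/- spleen. With the deposited values 14 and 19 were higher in aid-/- and mbd4-/- ES cells, 0 higher and 4 lower in aid-/- liver, and 11 lower in aid-/- spleen. Those shares were 10.5% and 5.51%, 13.4% and 5.86%, 19.8% and 16.5%, 2.33% and 3.85%, and 6.40% and 5.86% in the same order, so in liver the members' share was below that of the array. Centring on the low mode gave 53 higher in the knockdown and 7 higher in aid-/- liver, and moved the median difference of all regions to 0.27 (aid-/- ES), 0.54 (knockdown), 0.22 (liver) and -0.14 (spleen); 28.4% of members and 23.7% of all regions were then listed in the knockdown and 17.7% and 9.63% in liver. The GC correction gave 7 lower in aid-/- ES cells (18.1% of members and 8.76% of all regions in either direction) and 1 higher in aid-/- liver (16.05% and 8.15%). No input filter gave 5 higher in liver (16.8% and 10.1%) and 2 in spleen (14.9% and 8.79%).

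For ES cells against tissues, limma called 2 higher and 11 lower on the common plateau and with the deposited values, 3 and 12 on the common plateau with a scan-day block and 2 and 10 there within 1 day, 1 lower on the low mode, 1 higher with the GC correction and 0 in the other settings. For aid-/- against mbd4-/- the count lower in aid-/- ran from 0 to 38 when each array was left out in turn. The count high on all ES arrays was 15 under the rescored values and 26 without the knockdown, the one array left out for it. The cause was not tested. No paired analysis was possible because groups of 1 array share no replicate numbers that the labels give; tissue was the block of the genotype fit. The slide block of the genotype fit could not be fitted and scan day was not estimable there, so neither was run. Dim bound signal limits aid-/- ES cells most.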

Other observations

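Of the 44 Zfp genes without a region of 3 probes, 3 were high on all 8 arrays: Zfp345 (1 probe), Zfp942 (2 probes) and Zfp945 (2 probes). Zfp345 measured 2.70 in wild-type ES cells and 2.92 in mbd4-/- liver. These rest on too few probes to be set beside the regions.

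The Zfp regions high on at least 1 ES array but on no tissue array were 5, in Zfp318, Zfp775, Zfp82, Zfp560 and Zfp167.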
